A study of Mus musculus with 45 samples.

Results

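Expression of 9 germline and meiosis genes (Stra8, Rec8, Sycp1, Sycp3, Hormad1, Dazl, Ddx4, Mael and Tex101) was examined in mouse embryonic stem cells (ESCs) before and after retinoic acid. The genes were taken by symbol, and all 9 were among the 33924 genes listed in each of 2 tables of 12 RNA-seq samples. The cells were D3 ESCs of strain 129, grown without feeder cells in medium with leukemia inhibitory factor, and carried a Cas9 deletion at 5430416N02Rik, a long noncoding RNA locus. In ΔG cells the gene body was replaced by a GFP-IRES-Puro cassette, and in ΔPG cells both the promoter and the gene body were replaced by a PGK-puro cassette. Heterozygous (het) and homozygous (hom) cells of each deletion were treated for 48 h with DMSO (ES) or with 2 µM retinoic acid (RA), giving 8 groups of 3 samples. Het cells, which still carry 1 intact allele, were the controls, and no unedited cells are among the samples used here. The study names a single clone of each genotype beside the expression data, so clone and genotype cannot be told apart. Values are regularized log (rlog) values, which are normalized counts on a log2 scale in which genes with few counts are pulled toward their mean. The ΔG and ΔPG tables were normalized separately, and every test was made within 1 table.

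Germ cells are set aside early in the mouse embryo, and in the fetal ovary and the postnatal testis retinoic acid starts their entry into meiosis. STRA8, the protein of a gene first found as stimulated by retinoic acid, is needed for this entry, and the germ cell factor DAZL is known to make germ cells able to respond. During meiotic prophase a cohesin with REC8 holds sister chromatids together, HORMAD1 sits on the chromosome axes, and SYCP3 and SYCP1 build the lateral and transverse parts of the synaptonemal complex, which joins homologous chromosomes. DDX4 and MAEL act in the germline with small piRNAs that silence transposons. In ESCs and somatic cells many such genes are kept low by DNA methylation of their promoters or by a repressor complex that contains E2F6 and MGA.

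The targeted gene followed the genotype labels: 5430416N02Rik was at rlog 3.80 to 5.64 in the 12 het samples and 2.12 to 3.08 in the 12 hom samples. Of 10 genes that respond to retinoic acid in other settings 8 rose in each of the 4 backgrounds, Cyp26a1 by 4.57 to 5.88 and Rarb by 2.41 to 3.04, and Rarg and Cdx1 fell. All 7 ESC markers fell and all 7 endoderm markers rose with RA in each of the 4 backgrounds, with a log2 difference of -3.81 for Pou5f1 and 4.06 for Gata6 in het ΔG cells. The log2 of the summed level of the ESC markers ranged from 13.45 to 13.83 in ES samples and from 9.45 to 9.74 in RA samples, and that of the endoderm markers from 6.72 to 7.56 and from 10.5 to 11.46. Of 5 fibroblast markers 4, 4, 3 and 4 rose with RA in het ΔG, hom ΔG, het ΔPG and hom ΔPG cells, 1 fell in each of the ΔPG backgrounds, of 4 neural progenitor markers 2 rose in each, and the 3 cleavage-stage genes Zscan4c, Zscan4d and Zfp352 rose in each. The part of these shifts in the changes of the 9 genes was not tested. Markers of late male germ cells (Prm1, Prm2, Tnp1, Tnp2, Acrv1) were listed at 0 in all samples, and none of 4 markers of testis somatic cells was called. Because these are bulk samples, more cells with an RNA and more RNA per cell cannot be told apart. In the ΔPG table the ES samples carried a trend with the GC content of the genes. The deviation of a sample from the gene mean correlated with exonic GC content at r = 0.333 to 0.339 in the 3 het ES samples and at -0.292 to -0.238 in the 3 hom ES samples (across 11904 genes, which are not independent), against -0.0853 to -0.0238 in the 6 RA samples. In the ΔG table these values were -0.135 to -0.106 in the 6 ES samples and 0.0626 to 0.165 in the 6 RA samples. They thus differed with treatment there. The differences of the 9 genes that use the ΔPG ES samples are therefore given with and without the GC trend. The same holds for the RA differences of Hormad1, Sycp3, Sycp1 and Dazl in ΔG cells. Its removal was possible for genes with a mean rlog of at least 3, which leaves out Tex101.

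**Figure D1:**
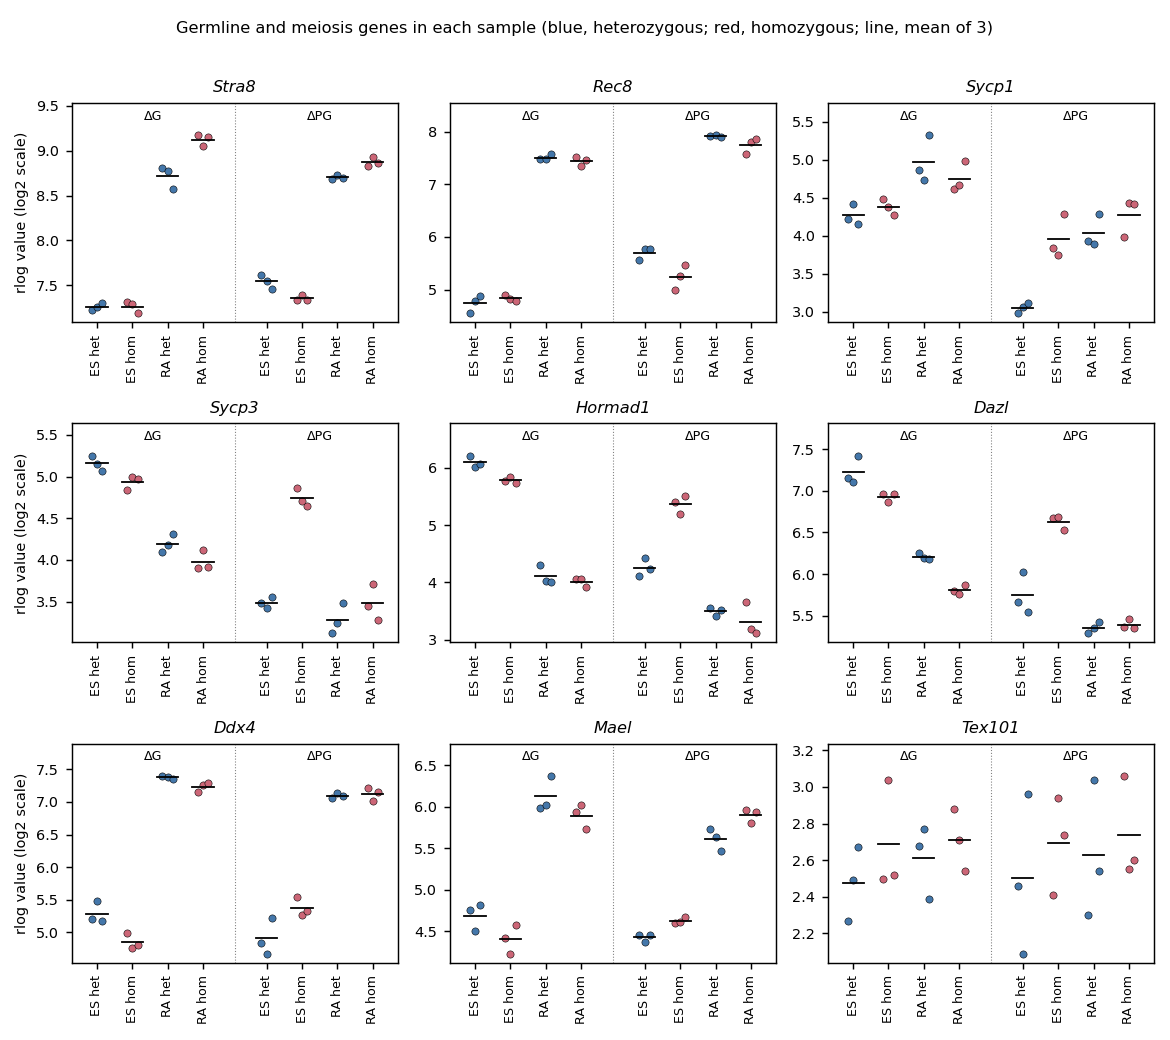
The rlog value (log2 scale) of each gene in each of the 24 samples; blue points are heterozygous and red points homozygous cells, the line is the mean of 3, and the dotted line parts the 2 separately normalized tables. Stra8, Rec8, Ddx4 and Mael stand higher in every RA group than in the matched ES group, Hormad1 stands lower, and Tex101 overlaps throughout.

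The first comparison asked how the 9 genes responded to retinoic acid. Stra8, Rec8, Ddx4 and Mael rose in all 4 backgrounds, by 1.16 to 2.77 on the log2 scale. Hormad1 fell in all 4, and Dazl and Sycp3 fell in 3 of the 4. Sycp1 was called higher in both het backgrounds and in neither hom background, and Tex101 was not called in any. A gene was called when its limma adjusted p was under 0.1 and its log2 difference over 0.5.

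In het ΔG cells 5 of the 9 genes were called higher, where 17.7% of all 22048 tested genes were, and 3 lower, where 11.7% were. In hom ΔG cells 4 were higher (17% of all genes) and 3 lower (12.1%). In het ΔPG cells 5 were higher (18% of 21979 genes) and 1 lower (13.6%), and in hom ΔPG cells 4 were higher (16.5%) and 3 lower (11.3%). With the GC trend removed, 4 of 8 genes were higher and 3 lower in het ΔPG cells, and 5 were higher and 3 lower in each of the other backgrounds. Of all genes in that setting, 2888 of 11997 were higher and 2552 lower in het ΔG cells. In hom ΔG cells 2942 were higher and 2618 lower. Of 11904 genes, 2871 were higher and 2519 lower in het ΔPG cells, and 2698 and 2292 in hom ΔPG cells. The percentages over all tested genes include many genes at the low end of the scale. Of the 11997 genes with a mean rlog of at least 3, 5457 were called in het ΔG cells. The samples of the RA and ES groups did not overlap for 8 genes in het ΔG (54.5% of all genes), 8 in hom ΔG (52.6%), 7 in het ΔPG (56.1%) and 7 in hom ΔPG cells (52.7%). After quantile normalization, the share of higher genes among all called genes fell from 60.2% to 47.9% in het ΔG, from 58.4% to 47.1% in hom ΔG, from 57% to 48.7% in het ΔPG and from 59.4% to 49.2% in hom ΔPG cells. The direction of the 4 genes that rose in all backgrounds and of the 3 that fell was kept under that scaling.

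**Figure D2:**
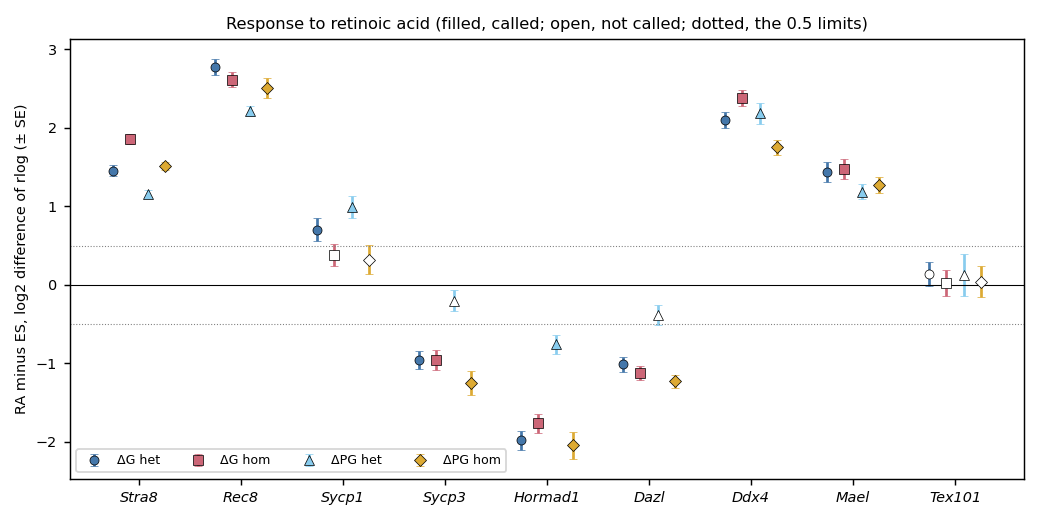
Log2 difference of rlog values between RA and ES samples for each gene in the 4 backgrounds, with the standard error from limma (3 samples against 3); filled symbols passed the adjusted p and the 0.5 limit, which is dotted. Stra8, Rec8, Ddx4 and Mael lie above the upper limit in all 4, and Hormad1 below the lower limit in all 4.

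Stra8 (chr6:34870163-34889342, plus strand, NCBIM37), the gatekeeper of meiotic entry, had rlog values of 7.23, 7.26 and 7.30 in het ΔG ES samples and of 8.81, 8.77 and 8.57 after RA. In hom ΔG cells the values were 7.31, 7.29 and 7.19 before and 9.17, 9.05 and 9.15 after. Every RA sample was above every ES sample, and the hom RA samples were above the het RA samples. The log2 difference was 1.45 ± 0.07 (SE, adjusted p = 1.07e-09) in het and 1.86 ± 0.06 (adjusted p = 4.49e-14) in hom ΔG cells.

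In the ΔPG table Stra8 stood at 7.62, 7.55 and 7.46 in het ES and at 8.69, 8.73 and 8.70 in het RA samples. The hom samples stood at 7.34, 7.39 and 7.34 before RA and at 8.83, 8.93 and 8.86 after. The groups were again fully separate, with log2 differences of 1.16 ± 0.04 (adjusted p = 5.27e-07) and 1.52 ± 0.05 (adjusted p = 8.15e-10). With the GC trend removed they were 1.24 and 1.49. Stra8 was thus already readable in untreated ESCs, and its rise of 1.16 to 1.86 compares with at least 4.57 for Cyp26a1, the retinoic acid degrading enzyme, and with at least 2.41 for the receptor gene Rarb.

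Per length (rlog minus the log2 of the exonic length in kb), Stra8 had the highest level of the 9 genes in every group, from 6.42 to 6.70 in ES and from 7.85 to 8.28 in RA samples (group means). In het ΔG ES cells Dazl followed at 5.63, Hormad1 at 5.31, Sycp3 at 4.82, Mael at 4.06, Ddx4 at 3.77, Rec8 at 3.28, Sycp1 at 2.47 and Tex101 at 2.40. The last pair differed by less than their SDs (0.14 and 0.20). After RA the order changed: Rec8 at 6.05, Ddx4 at 5.87 and Mael at 5.49 came next after Stra8, and Hormad1, at 3.32, and Sycp1, at 3.18, differed by less than the SD of Sycp1 (0.31).

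Rec8 (chr14:56236874-56244232, plus strand) encodes the kleisin subunit of meiotic cohesin. Its values in het ΔG cells were 4.55, 4.79 and 4.88 before and 7.48, 7.48 and 7.57 after RA, and in hom cells 4.89, 4.82 and 4.78 before and 7.52, 7.35 and 7.46 after. Its log2 differences of 2.77 ± 0.10 and 2.61 ± 0.10 were the largest rise among the 9 genes in each of these backgrounds. In ΔPG cells it went from 5.56, 5.78 and 5.77 to 7.92, 7.93 and 7.90 in het and from 5.00, 5.26 and 5.47 to 7.57, 7.81 and 7.87 in hom samples. These are log2 differences of 2.22 ± 0.07 and 2.51 ± 0.12, or 2.46 and 2.40 with the GC trend removed, and the adjusted p in the 4 backgrounds was between 1.53e-13 and 1.59e-07.

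Of the chromosome axis and synaptonemal complex genes among the 9, Hormad1 fell in all 4 backgrounds and Sycp3 in 3. Sycp1 was called higher in het cells, a pattern that changed with the processing. Hormad1 (chr3:95363599-95391593, plus strand) fell from 6.21, 6.02 and 6.06 to 4.31, 4.02 and 4.01 in het ΔG and from 5.77, 5.83 and 5.74 to 4.06, 4.06 and 3.92 in hom ΔG cells. No RA sample reached an ES sample, and the log2 differences were -1.99 ± 0.12 and -1.77 ± 0.12, or -1.69 and -1.42 with the GC trend removed. In ΔPG cells Hormad1 stood at 4.11, 4.42 and 4.23 in het ES, 3.56, 3.41 and 3.51 in het RA, 5.40, 5.19 and 5.50 in hom ES and 3.65, 3.19 and 3.11 in hom RA samples. The falls there were -0.76 ± 0.12 (adjusted p = 0.00105) and -2.05 ± 0.17 (adjusted p = 1.44e-06), and they were -1.33 and -1.75 with the GC trend removed.

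Sycp3 (chr10:87922314-87935981, plus strand), which overlaps Chpt1 on the opposite strand, encodes a lateral element protein. It fell in ΔG cells from 5.25, 5.15 and 5.07 to 4.10, 4.18 and 4.31 in het and from 4.84, 4.99 and 4.97 to 3.90, 4.12 and 3.92 in hom samples, a log2 difference of -0.96 in each. With the GC trend removed these differences were -0.67 and -0.61. In hom ΔPG cells it fell from 4.86, 4.71 and 4.65 to 3.45, 3.71 and 3.28, by 1.26 on the log2 scale (adjusted p = 3.41e-05), and was at -0.97 with the GC trend removed. In het ΔPG cells the ES values of 3.49, 3.42 and 3.56 overlapped the RA values of 3.12, 3.25 and 3.49, and the log2 difference of -0.20 ± 0.13 was not called (adjusted p = 0.259). With the GC trend removed it was -0.77 (adjusted p = 6.32e-06) and after quantile normalization -0.61 (adjusted p = 0.00682), and both were called.

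Sycp1 (chr3:102622422-102740023, minus strand) encodes the transverse filament. In het ΔG cells it rose from 4.22, 4.42 and 4.16 to 4.87, 4.73 and 5.32, by 0.70 ± 0.15 (adjusted p = 0.00147), a call lost after quantile normalization (0.31, adjusted p = 0.243). In hom ΔG cells the values of 4.48, 4.38 and 4.27 and of 4.61, 4.67 and 4.98 did not overlap, yet the difference of 0.38 stayed under the limit. In ΔPG cells it was at 2.98, 3.06 and 3.11 in het ES and 3.93, 3.89 and 4.29 in het RA samples, a difference of 0.99 that was 0.37 without the GC trend. In hom ΔPG cells the ES values of 3.84, 3.74 and 4.29 overlapped the RA values of 3.98, 4.43 and 4.42 (0.32, adjusted p = 0.197). Without the trend the hom differences were 0.79 in ΔG and 0.67 in ΔPG cells, and both were called. In het ΔG cells the difference without it was 1.05, also called.

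Among the germ cell RNA-binding and piRNA genes, Ddx4 and Mael rose and Dazl fell. Ddx4 (chr13:113388541-113442518, minus strand), the germline DEAD-box helicase, went from 5.20, 5.48 and 5.17 to 7.40, 7.39 and 7.36 in het ΔG and from 4.98, 4.76 and 4.81 to 7.15, 7.26 and 7.29 in hom ΔG cells. It reached 7.02 to 7.21 in all 6 ΔPG RA samples from 4.67 to 5.54 in the 6 ES samples. The log2 differences were 2.10, 2.38, 2.18 and 1.75 in het ΔG, hom ΔG, het ΔPG and hom ΔPG cells, and the last pair was 1.82 and 1.86 with the GC trend removed.

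Mael (chr1:168131516-168168875, minus strand), which acts in piRNA-guided silencing, stood at 4.23 to 4.81 in the 6 ΔG ES samples and at 5.73 to 6.37 in the 6 RA samples. In the ΔPG table the ranges were 4.37 to 4.67 and 5.47 to 5.96. Neither table had an overlap, and the log2 differences were 1.43, 1.48, 1.19 and 1.27 in the same order of backgrounds, with 1.09 and 1.30 in ΔPG cells once the GC trend was removed.

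Dazl (chr17:50418719-50432924, minus strand), a germ cell translation regulator, fell from 7.15, 7.10 and 7.42 to 6.25, 6.19 and 6.18 in het ΔG and from 6.96, 6.87 and 6.96 to 5.80, 5.76 and 5.87 in hom ΔG cells. The log2 differences were -1.01 ± 0.09 and -1.12 ± 0.09, or -0.77 and -0.83 with the GC trend removed. In ΔPG cells it went from 5.67, 6.03 and 5.55 to 5.29, 5.36 and 5.43 in het and from 6.67, 6.68 and 6.53 to 5.37, 5.46 and 5.36 in hom samples. The hom fall of 1.23 was called (-0.99 with the GC trend removed), while the het value of -0.39 (adjusted p = 0.0331) stayed under the limit. The het value was -0.91 with the GC trend removed and -0.57 (adjusted p = 0.0128) after quantile normalization, and both were called.

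Tex101 (chr7:25453031-25457069, minus strand), which encodes a surface protein of germ cells, was at the low end of the scale in all 24 samples, between 2.09 and 3.06. Its log2 differences with RA were 0.14, 0.02, 0.12 and 0.04, with adjusted p between 0.51 and 0.934. A change was not detectable at this level, where rlog values are pulled together most.

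Other genes of the same processes, in lists assembled with earlier results of these data known, are given as counts beside the shares of all genes, 16.5 to 18% higher and 11.3 to 13.6% lower in the 4 backgrounds. No list was tested against all genes. Of 17 piRNA pathway genes, Ddx4 and Mael included, 8, 8, 7 and 8 rose in het ΔG, hom ΔG, het ΔPG and hom ΔPG cells and 1, 1, 1 and 2 fell. The tudor domain genes Tdrd1 (1.89 in het ΔG cells) and Tdrkh (1.77) rose in all 4 backgrounds, as did Tdrd7 and Tdrd5, and Tdrd12 fell in all 4, by 2.18 in het ΔG cells. The list median in het ΔG cells was 0.29, beside 0.04 for all genes. Mov10l1, the helicase that starts piRNA processing, rose by 1.28 in het ΔG cells and was not called in het ΔPG cells (0.30, or 0.32 with the GC trend removed).

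Of 8 genes for meiotic cohesin and chromosome axes, Rec8 alone was called higher, in all 4 backgrounds, and 3, 3, 1 and 3 were called lower. Beside Hormad1, the meiotic cohesin subunit gene Smc1b fell by 1.04 and the centromere protector Sgol2 by 0.76 in het ΔG cells, and neither was called in het ΔPG cells (-0.19 and -0.06). With the GC trend removed Smc1b was called there at -0.62, and Sgol2 was at -0.46. The list median was -0.37 in het ΔG cells. Of 7 synaptonemal complex genes 2, 1, 2 and 1 rose and 2, 1, 0 and 2 fell. Sycp2, the partner of Sycp3 in the lateral element, rose in all 4 (0.99, 0.77, 1.66 and 0.94), and Syce2, a central element gene, fell in het ΔG cells (-0.58) and in hom ΔPG cells (-0.74). Of 16 recombination genes 2, 1, 4 and 2 rose and 3, 2, 1 and 2 fell. Tex11, which acts in crossover formation, rose in all 4 backgrounds, by 0.99 in het ΔG cells, and the mismatch repair gene Mlh3 fell in all 4, by 1.12 there. The synaptonemal complex and recombination genes called are too few to be set apart from the shares of all genes.

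Of 12 genes for germ cell specification and germline RNA-binding proteins, 11 of them tested in the ΔPG table, 2, 2, 3 and 2 rose and 4, 3, 4 and 5 fell. Prdm14, a factor of primordial germ cells that ESCs also express, fell by 3.91 in het ΔG cells, and the receptor gene Kit by 1.70. Of 24 germline genes listed as repressed by promoter methylation or the E2F6-MGA complex, 6 of the 9 genes included, 9, 9, 7 and 9 rose and 7, 9, 5 and 9 fell. Not all of them were low in untreated cells: in het ΔG ES samples Rpl10l had a mean rlog of 8.39 and Dazl of 7.22. Taf7l, a germ cell transcription factor, rose by 1.60 and Slc25a31, a testis ADP/ATP carrier, by 1.52 in het ΔG cells, whereas the ribosomal protein retrogene Rpl10l fell by 2.25. The median of this list in het ΔG cells was 0.03, close to the 0.04 of all genes.

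Of 20 genes for the repressors themselves, the E2F6-MGA complex and the H3K9 and DNA methylation machinery, 6, 4, 4 and 3 rose with RA, where 17.7, 17, 18 and 16.5% of all genes did, and 6, 6, 6 and 6 fell, where 11.7, 12.1, 13.6 and 11.3% did. L3mbtl2, a subunit of the complex, fell in all 4 backgrounds (-1.11, -1.01, -1.38 and -0.85), as did Uhrf1, which guides DNA methylation to replicated DNA (-1.19 in het ΔG cells). Mga fell by 0.80 in het ΔG and was at 0.04, not called, in het ΔPG cells (-0.30 with the GC trend removed, not called). Yaf2, another subunit, rose by 1.69 and the DNA methyltransferase gene Dnmt3a by 1.36 in het ΔG cells. Whether these changes have a part in those of the 9 genes was not tested.

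The same lists were counted in ΔPG cells with the GC trend removed. Of all 11904 genes kept for this, 2871 were higher and 2519 lower in het ΔPG cells, and 2698 and 2292 in hom ΔPG cells. In het ΔPG cells 7 of 19 genes listed as repressed by promoter methylation or the E2F6-MGA complex were higher and 8 lower. Of 8 recombination genes 1 was higher and 3 lower, and of 20 repressors 3 were higher and 4 lower. Of 9 piRNA pathway genes 5 were higher and 1 lower, of 7 cohesin and axis genes 1 and 2, of 5 synaptonemal complex genes 1 and 1, and of 8 specification and RNA-binding genes 2 and 3. In hom ΔPG cells the counts in that order were 8 and 7, 1 and 2, 3 and 4, 7 and 1, 1 and 1, 2 and 2, and 2 and 4. Sycp2, Tex11, Tdrd1, Tdrkh and Tdrd7 were also called higher, and Tdrd12, Mlh3, L3mbtl2 and Uhrf1 lower, in both ΔPG backgrounds without the trend.

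The promoters were read for the letters that the repressor complex and retinoic acid receptors are known to bind. The 250 bases before the RefSeq gene start (GRCm38.p6) were available for all 9 genes and for 27025 symbols in all. The E-box CACGTG, bound by MGA with MAX, was found in 5 of the 9 genes and in 6.05% of all promoters. The E2F site GCGGGAA, on either strand, was in 3 of the 9 and in 3.84% of all, and each of these 3 also held the E-box. Both motifs contain a CpG, and the promoters of all symbols were not matched to the 9 for CpG content. The 5 promoters with an E-box are shown because they belong to genes that moved in opposite directions with RA. Hormad1 fell and Ddx4 and Mael rose in all backgrounds, and Sycp3 fell in 3 of the 4. Sycp1 was called higher in het cells, but the backgrounds in which it was called changed with the processing. Capitals mark CACGTG and GCGGGAA, and each sequence is given 5′ to 3′ on the strand of the gene. Hormad1 is at chr3:95559427-95559676 (plus), Sycp3 at chr10:88459337-88459586 (plus), Ddx4 at chr13:112652311-112652560 (minus), Mael at chr1:166238745-166238994 (minus) and Sycp1 at chr3:102936101-102936350 (minus).
Hormad1: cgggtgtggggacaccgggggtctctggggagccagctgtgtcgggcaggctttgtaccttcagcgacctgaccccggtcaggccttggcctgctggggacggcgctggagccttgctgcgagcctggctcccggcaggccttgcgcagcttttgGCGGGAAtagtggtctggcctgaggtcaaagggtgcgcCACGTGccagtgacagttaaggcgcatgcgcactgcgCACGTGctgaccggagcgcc
Sycp3: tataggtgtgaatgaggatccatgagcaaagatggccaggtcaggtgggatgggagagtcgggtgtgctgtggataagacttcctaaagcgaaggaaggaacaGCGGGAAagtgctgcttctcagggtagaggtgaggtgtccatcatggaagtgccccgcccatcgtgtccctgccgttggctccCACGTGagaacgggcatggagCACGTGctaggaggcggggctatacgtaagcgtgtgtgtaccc
Ddx4: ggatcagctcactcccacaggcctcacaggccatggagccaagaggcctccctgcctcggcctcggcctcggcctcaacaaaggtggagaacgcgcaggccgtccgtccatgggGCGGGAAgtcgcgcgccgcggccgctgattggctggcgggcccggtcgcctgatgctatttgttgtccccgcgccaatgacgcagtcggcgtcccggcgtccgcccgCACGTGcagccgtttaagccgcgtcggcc
Mael: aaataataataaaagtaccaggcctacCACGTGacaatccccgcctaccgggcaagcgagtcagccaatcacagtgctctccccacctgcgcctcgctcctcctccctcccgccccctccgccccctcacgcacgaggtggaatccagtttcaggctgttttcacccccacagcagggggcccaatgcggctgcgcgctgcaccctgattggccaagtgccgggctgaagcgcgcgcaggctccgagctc
Sycp1: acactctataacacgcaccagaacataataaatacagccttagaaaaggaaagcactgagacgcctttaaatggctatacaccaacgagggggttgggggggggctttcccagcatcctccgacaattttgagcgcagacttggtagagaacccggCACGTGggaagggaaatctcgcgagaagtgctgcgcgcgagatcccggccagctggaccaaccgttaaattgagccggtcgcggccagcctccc

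Hormad1 and Sycp3 each held 2 E-boxes within 64 bases of the start, and Ddx4 held 1 at 29 bases and Mael 1 at 223 bases before it. Rec8, Dazl, Tex101 and Stra8 held neither motif in this window. The hexamer AGGTCA that retinoic acid receptors bind was in 3 of the 9 promoters (13.8% of all), once in Sycp3 and in Hormad1 and at 2 places in Stra8. An exact direct repeat of it with a spacer of 2 or of 5 bases was in none of the 9 windows. It was in only 2 of 27025 promoters (0.0074%) for either spacer, so its absence from 9 windows says little. Repeats with other letters in the hexamer were not searched for. The 2 Stra8 places, with the hexamer in capitals, are at chr6:34920742-34920771 and chr6:34920898-34920927, on the plus strand.
Stra8, first place: gatggggtgaaaAGGTCAtcttgctccttc
Stra8, second place: gcctggggtaccAGGTCAgttttttacctg

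CpG dinucleotides numbered 31 in the window of Ddx4, 20 in Dazl, 19 in Hormad1, 18 in Mael, 17 in Sycp1, 14 in Tex101, 12 in Sycp3, 10 in Rec8 and 5 in Stra8, where the median of all promoters was 6. The ratio of observed to expected CpG was 0.27 in Stra8 and 1.00 in Ddx4, with a median of 0.378 over all promoters. Stra8 was thus the only one of the 9 under the median by either measure. These matches describe the letters of a window and are not measured binding sites.

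**Figure D3:**
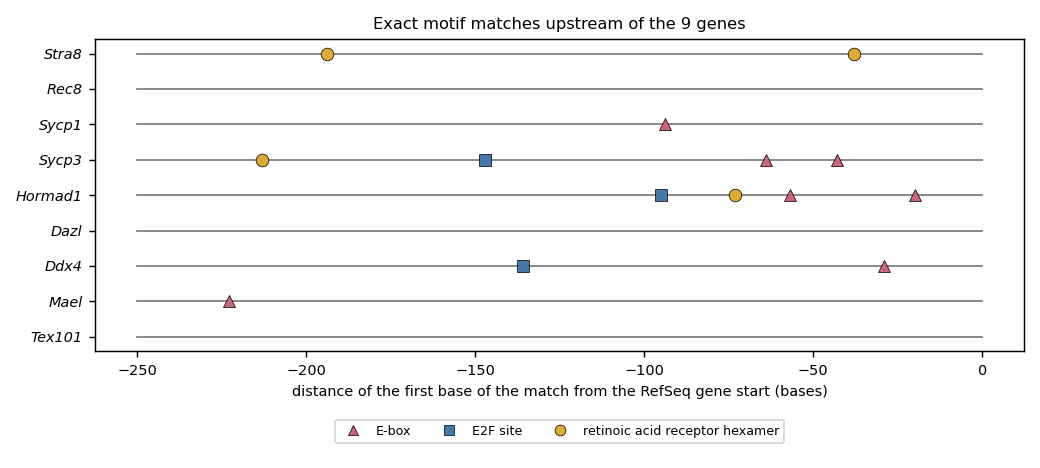
Positions of exact matches to the E-box (triangles), the E2F site (squares) and the retinoic acid receptor hexamer (circles) in the 250 bases before the RefSeq start of each gene; the x axis is the distance of the first base of a match from the start, in bases. Sycp3 and Hormad1 hold all 3 motifs, Ddx4 holds an E-box and an E2F site, and Rec8, Dazl and Tex101 hold none.

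The second comparison asked whether these genes differed between hom and het cells of each deletion, which are different clones. In ΔG cells 0 of the 9 were called in either state, by limma or under any alternative run. Of all 22048 genes, 0.984% were called in ES and 2.14% in RA samples. At an unadjusted p under 0.05 stood 4 of the 9 in ES and 2 in RA samples. The share of all genes at that limit was not counted, here or for the counts at this limit below, so no excess can be read from them. The largest ES difference was that of Ddx4, -0.44 ± 0.11 (adjusted p = 0.108), followed by Hormad1 at -0.32 ± 0.08 (adjusted p = 0.0942) and Dazl at -0.29 ± 0.09 (adjusted p = 0.182). In these 3 and in Sycp3 (-0.22) the hom samples were all below the het samples, and 17.8% of all genes had groups that did not overlap.

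In RA-treated ΔG cells Stra8 was higher in all 3 hom than in all 3 het samples, by 0.41 ± 0.06 (adjusted p = 0.000194), and Dazl was lower in all 3 by 0.40 ± 0.10 (adjusted p = 0.0135). Both passed the adjusted p and stayed under the limit of 0.5, and with Ddx4 (-0.15) they were the 3 genes without overlap, as 21.8% of all genes were. In the same comparison the endoderm marker Dab2 was at -0.70, the collagen gene Col1a2 at -1.41 and the cleavage-stage genes Zscan4c, Zscan4d and Zfp352 at -0.75, -0.80 and -0.86, all called. The summed endoderm markers were at 11.43 to 11.46 in het and at 10.97 to 11 in hom RA samples (log2), and the part of such differences in the value of Stra8 was not tested.

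In ΔPG ES cells 4 of the 9 genes were called higher in hom cells, where 6.87% of all 21979 genes were, and 0 were called lower, where 6.29% were. Sycp3 was higher by 1.25 ± 0.11 (adjusted p = 7.4e-05), Hormad1 by 1.11 ± 0.12 (adjusted p = 0.000263), Sycp1 by 0.91 ± 0.16 (adjusted p = 0.00334) and Dazl by 0.88 ± 0.12 (adjusted p = 0.000873). For 8 of the 9 genes no hom sample lay within the range of the het samples or the reverse, which held for 39.6% of all genes. Stra8 was at -0.19 ± 0.05 (adjusted p = 0.0278), Rec8 at -0.46 ± 0.13 (adjusted p = 0.0299), Ddx4 at 0.47 ± 0.15 (adjusted p = 0.0525) and Mael at 0.20 ± 0.09 (adjusted p = 0.155), none of them called. Ddx4 passed both limits without het ES replicate 3 (0.62) or hom ES replicate 2 (0.52), and Rec8 without hom ES replicate 3 (-0.57) or het ES replicate 1 (-0.53).

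The 4 called genes were those with the lowest exonic GC content of the 9: Sycp1 at 34.6%, Hormad1 at 36.0%, Sycp3 at 36.1% and Dazl at 37.4%. Ddx4 followed at 41.3%, Mael at 46.6%, Stra8 at 51.0%, Tex101 at 53.1% and Rec8, the lowest value of the comparison, at 56.2%. Across all 11904 genes with a mean rlog of at least 3, the log2 difference correlated with GC content at r = -0.705 (rho = -0.735, across genes, which are not independent), and in ΔG ES cells at r = 0.00567. The 596 genes of the lowest GC bin, with a median GC content of 38.6%, had a median difference of 0.70 and a 90th percentile of 1.22. Sycp3 alone lay above that percentile.

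**Figure D4:**
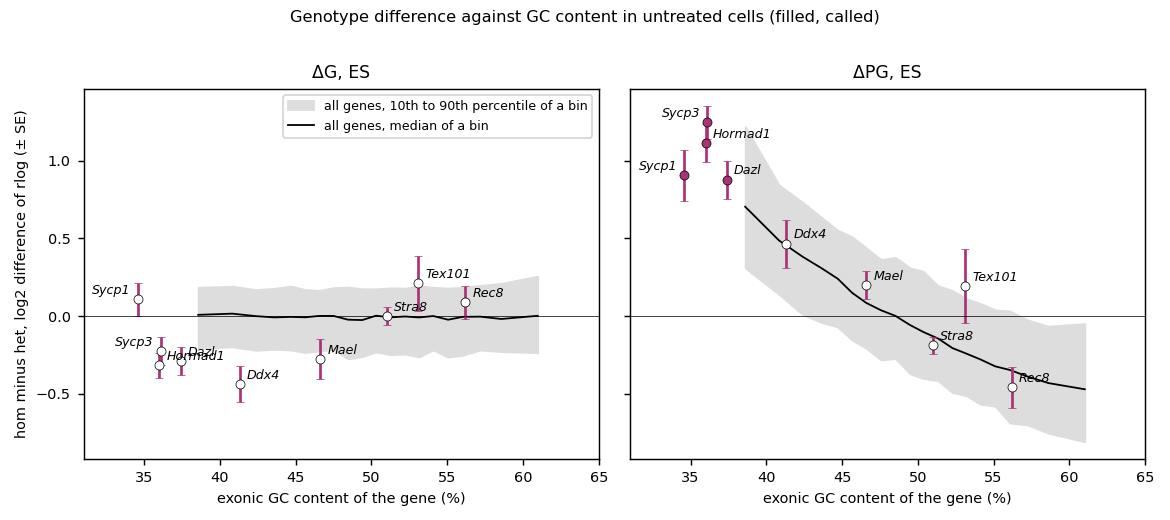
Log2 difference between hom and het ES samples (± SE, 3 against 3) against the exonic GC content of the gene, in ΔG (left) and ΔPG cells (right); the black line is the median of 20 bins of all genes with a mean rlog of at least 3, the grey band their 10th to 90th percentile, and filled points were called. In ΔPG cells the genes follow the falling line, with Sycp3, Hormad1, Sycp1 and Dazl at the left end, and in ΔG cells the line is flat.

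When this trend was removed, 0 of the 8 genes that could be measured were called in ΔPG ES cells (Tex101 is under a mean rlog of 3), and 1 had an unadjusted p under 0.05. Of all 11904 genes in that setting 865 were called, so a count of 0 of 8 does not set these genes apart. Sycp3 was at 0.35 (adjusted p = 0.0462), Hormad1 at 0.22 (adjusted p = 0.202), Dazl at 0.09 (adjusted p = 0.54) and Sycp1 at -0.11 (adjusted p = 0.606). Rec8 was at -0.10, Mael at 0.08, Stra8 at -0.07 and Ddx4 at -0.02. A genotype difference of the 4 genes in ΔPG ES cells thus depends on how the GC trend is treated, and the cause of the trend was not tested.

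**Figure D5:**
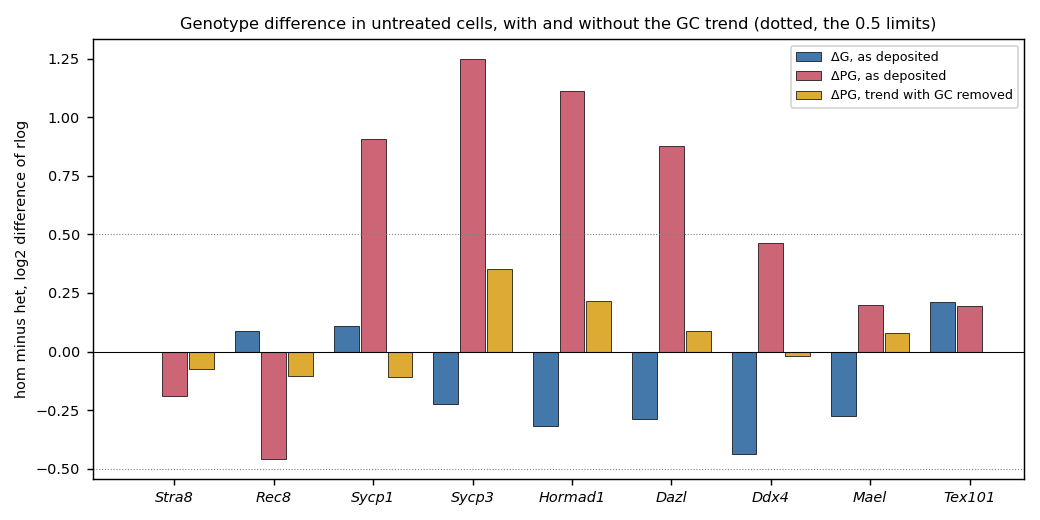
Log2 difference between hom and het ES samples for each gene in ΔG cells (blue), in ΔPG cells as deposited (red) and in ΔPG cells with the GC trend removed (yellow); Tex101 has no yellow bar because its mean rlog is under 3. The red bars of Sycp3, Hormad1, Sycp1 and Dazl pass the dotted limit of 0.5, and no yellow bar does.

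After RA, 0 of the 9 genes were called between hom and het ΔPG cells, where 0.846% of all genes were. At an unadjusted p under 0.05 stood 3 of the 9, with the share of all genes not counted. Mael was at 0.28 ± 0.10 (adjusted p = 0.199) and Stra8 at 0.17 ± 0.04 (adjusted p = 0.052), both with all hom samples above all het samples. With Rec8 (-0.17) these were the 3 genes whose groups did not overlap, beside 18.8% of all genes. In this comparison 4 of 7 endoderm markers were called lower in hom cells, with a list median of -0.50, and their summed level was at 11.07 to 11.08 in het and at 10.5 to 10.51 in hom samples (log2). The cleavage-stage genes Zscan4c and Zscan4d were called higher in hom cells, each at 0.81, and Zfp352 was at 0.42, not called, where all 3 were lower in hom ΔG RA cells.

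The third comparison asked whether the response to RA differed between hom and het cells. In ΔG cells 0 of the 9 were called (2.38% of all genes), and 1 of them, Stra8, had an unadjusted p under 0.05. In ΔPG cells 4 were called with a negative difference, hom response minus het response (7.19% of all genes): Hormad1 at -1.29 ± 0.22 (adjusted p = 0.00046), Sycp3 at -1.05 ± 0.20 (adjusted p = 0.00128), Dazl at -0.84 ± 0.15 (adjusted p = 0.000756) and Sycp1 at -0.67 ± 0.25 (adjusted p = 0.0659). Hormad1, Sycp3 and Dazl thus had the larger fall in hom cells (-2.05, -1.26 and -1.23, against -0.76, -0.20 and -0.39 in het cells), and Sycp1 the smaller rise (0.32 against 0.99). This contrast contains the ES difference above, and it correlated with GC content at r = 0.695 across genes. With the trend removed 0 of 8 were called, where 1122 of all 11904 genes were, and 2 had an unadjusted p under 0.05. Hormad1 was then at -0.43 (adjusted p = 0.127), Sycp3 at -0.20, Dazl at -0.08 and Sycp1 at 0.30. The call of Sycp1 was lost without each of 5 single samples (het ES replicate 1 or 2, hom ES replicate 3, het RA replicate 3, hom RA replicate 1), with values from -0.67 to -0.50, and under an adjusted p of 0.05. Ddx4 was called without het ES replicate 3, at -0.59.

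Stra8 had a larger response in hom than in het cells in both tables, each tested on its own. The difference was 0.41 ± 0.10 (adjusted p = 0.0141) in ΔG and 0.36 ± 0.06 (adjusted p = 0.000841) in ΔPG cells. Neither reached 0.5, and with the GC trend removed they were 0.42 (adjusted p = 0.00248) and 0.25 (adjusted p = 0.0101). In RA samples the summed endoderm markers were lower in hom than in het cells in both tables. The summed neural progenitor markers were higher in hom ΔG RA samples (9.389 to 9.427, against 9.178 to 9.234, log2). They were lower in hom ΔPG RA samples (9.409 to 9.45, against 9.48 to 9.543). The single markers did not share these directions. Hom minus het, 1 of 4 was above 0 in ΔG RA cells (median -0.06) and 2 of 4 in ΔPG RA cells (median 0.01). None of them was called. The part of such differences in the response of Stra8 was not tested.

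The genes whose values followed those of Stra8 most closely over 12 samples were Irx5, Errfi1, Myh9, Dbndd1 and Prickle1 in the ΔG table (Pearson's r 0.995 for each, among 11996 genes) and Itga3, Mdk, Scube3, Dag1 and Notch2 in the ΔPG table (0.996 to 0.998, among 11903). Of the other germline genes Rec8 was nearest to Stra8, with r = 0.978 in ΔG and 0.982 in ΔPG samples. Ddx4 had 0.961 and 0.946, Mael 0.92 and 0.966, and Sycp1 0.752 and 0.597. Hormad1 was at -0.974 and -0.905, Sycp3 at -0.981 and -0.674, and Dazl at -0.964 and -0.818. Since the samples fall into ES and RA clusters, these values describe the treatment contrast that the genes share and are given without a test.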

How the data were processed

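The authors made stranded total RNA libraries (TruSeq, Ribo-Zero), aligned reads to mm9 with TopHat2, removed duplicates with Picard and took strand-specific counts per gene name with HTSeq. The authors deposited regularized log values from DESeq2, on a log2 scale, in 2 tables of 12 samples; it is not given in the sources used here whether the groups entered the transformation. Counts were not used here, which leaves the depth of the samples unknown, without intervals for counting error. The treatment dose and hours come from a figure legend of the study.

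Each comparison was fitted over all genes that vary in a table (22048 for ΔG, 21979 for ΔPG) with limma 3.58.1 in R 4.3.3 (eBayes with a trend) on its 6 samples, the interaction on 12, with Benjamini-Hochberg adjustment. Calls needed an adjusted p under 0.1 and a log2 difference over 0.5. An exact two-sided permutation of 3 against 3 cannot go below 0.1. Positions, exonic lengths and GC content came from GENCODE vM1 (NCBIM37) and promoters from RefSeq (GRCm38.p6), with no conversion between builds. For the GC correction, genes with a mean rlog of at least 3 were kept, values were centred per gene, and a lowess curve (span 0.3) on exonic GC content was taken off each sample. Other alternatives were quantile normalization, the filter at 3 alone, all 12 samples in 1 fit, a replicate block, an adjusted p under 0.05 with a fold over 1.5, and leaving out each sample.

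The 9 genes, lists and comparisons were chosen with earlier results of these data known. Named were the 9 genes, up to 3 called genes of largest change per list and comparison, the 5 genes most like Stra8 per table and control genes; Tdrd5, Mov10l1 and Slc25a31 lie outside this rule and were named after their values were seen. The 4C contact files were not used here.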

Additional observations from a re-analysis of the deposited data

Results flagged for a closer look

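The response to RA of 4 genes differed between hom and het ΔPG cells by the interaction test: Hormad1 (-1.29), Sycp3 (-1.05), Dazl (-0.84) and Sycp1 (-0.67), each as the log2 difference between the hom and the het response. The 4 are those of lowest exonic GC content among the 9, and none was called with the GC trend removed. In ΔG cells the same differences were 0.22, 0.00, -0.11 and -0.32, with no call, and the ΔG and ΔPG differences were not tested against each other. Groups of 3 samples are too small for a test of single outlying samples.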

How the results depend on the processing

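Limits: groups of 3, unknown depth, a shrunken scale and, in each line, 1 named clone per genotype. Removing the GC trend took the 9-gene calls to 0 of 8 in ΔPG ES cells and to 0 of 8 in the ΔPG interaction, and the cause was not tested. Over all genes it took 2893 calls to 865 and 3056 to 1122, with 11904 genes tested there. The filter at 3 alone, with the same 11904 genes, left 2784 and 2976 calls. Signs turned with it for Sycp1 (-0.11) and Ddx4 (-0.019) in ΔPG ES cells, for Sycp1 (0.30), Ddx4 (0.045) and Rec8 (-0.061) in the ΔPG interaction, and for Stra8 in ΔG ES cells (0.0023). None of these was called after the removal, but Sycp1 had been called before it in both, at 0.91 and -0.67. Under quantile normalization signs turned for Tex101 with RA (-0.13 in het ΔG, -0.26 in hom ΔG, -0.18 in het ΔPG, -0.31 in hom ΔPG), for Sycp1 with RA in hom ΔPG (-0.094) and for Mael in the ΔG interaction (-0.014), again with no call. That scaling added calls for Sycp3 (-0.61) and Dazl (-0.57) with RA in het ΔPG cells. The share of higher genes among all called in ΔG ES cells went from 35.9% to 47.6%.

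Leaving out 1 sample kept the number of called genes at 8, 7, 6 and 7 for RA in het ΔG, hom ΔG, het ΔPG and hom ΔPG cells. The counts were 4 to 5 in ΔPG ES cells, 3 to 5 in the ΔPG interaction and 0 in the 4 other comparisons. Values that changed sign were uncalled: Tex101 with RA in hom ΔG (-0.073 to 0.20), het ΔPG (-0.083 to 0.35) and hom ΔPG (-0.12 to 0.16), between genotypes in ΔG RA (-0.018 to 0.18), ΔPG ES (-0.013 to 0.42) and ΔPG RA (-0.052 to 0.32), and in the interactions (-0.23 to 0.060 in ΔG, -0.31 to 0.12 in ΔPG). The others were Stra8 (-0.024 to 0.036) and Rec8 (-0.0054 to 0.16) in ΔG ES, Dazl (-0.00069 to 0.071) and Ddx4 (-0.0093 to 0.090) in ΔPG RA, and Sycp3 (-0.067 to 0.058) and Mael (-0.045 to 0.17) in the ΔG interaction.

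Replicate numbers did not pair the samples: 0 of 18 same-number correlations passed 0.1 in either table (-0.033 to 0.0102 in ΔG, -0.0255 to 0.0855 in ΔPG). With the replicate block the number of called genes was 8, 7, 6 and 7 for RA, 4 in ΔPG ES cells, 4 in the ΔPG interaction and 0 elsewhere, and no single-gene call changed. Over all genes the block moved 217 calls to 44 in ΔG ES and 186 to 112 in ΔPG RA cells. An adjusted p under 0.05 with a fold over 1.5 moved them to 117 in ΔG ES cells, 275 (from 471) in ΔG RA cells and 268 (from 524) in the ΔG interaction.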
